A study of Mus musculus with 2 samples.

Results

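Genes of the kinetochore, the mitotic spindle and cytokinesis were followed in RNA sequencing of the mouse thymus. The list holds 47 genes, picked by name out of 23296 genes with a symbol in the deposited tables. Kinesins, mitotic kinases, condensins and cyclins were kept out of it. The samples were 1 library of miR-146a transgenic (Tg) thymus and 1 library of wild-type (WT) thymus. Both came from Balb/c mice of 5 to 6 weeks, and each was a pool of the thymuses of 1 male and 1 female. The study received its Tg mice as a gift and bought its WT mice, then bred both in its own facility. Genotype and colony of origin therefore cannot be told apart. The study describes the Tg mouse as a line that expresses the microRNA miR-146a systemically, and the promoter that drives the transgene is not given in the sources used here. With 1 library per genotype there was no measure of the spread between animals and no test between genotypes, so every difference below is one between these libraries and has no replicate check.

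Before a cell divides, each pair of sister chromatids carries a pair of kinetochores, protein assemblies built on the centromere that hold the ends of spindle microtubules. The inner kinetochore sits on centromeric chromatin marked by the histone variant CENP-A, the outer kinetochore grips microtubules, and the spindle checkpoint delays the parting of the chromatids until every kinetochore is held. The spindle then draws the chromatids apart, and cytokinesis closes the cell between them with a contractile ring and cuts the last bridge. In the thymus, dividing cells are found mainly among immature thymocytes, which multiply before and after the β chain of the T cell receptor is tested.

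The libraries were of like depth, with 15396696 fragments behind the Tg values and 14522669 fragments behind the WT values. Levels are in RPKM, which scales the reads of a transcript by its length and by the total reads of the library, and a gene took the value of its transcript with the highest mean. A gene was called measured when the mean of both libraries was at least 1 RPKM, which held for 11095 genes. The tissue label was checked on 12 thymocyte markers, which were all measured and summed to 5824 RPKM in the Tg library and 5319.5 RPKM in the WT library. By the mean of both libraries the highest of them were Tcf7, at 1370.2 RPKM in Tg and 1020.0 RPKM in WT, and Cd8b1, at 1063 RPKM in Tg and 945 RPKM in WT, while Cd3g had 692 RPKM in Tg and 1022 RPKM in WT.

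The kinetochore, spindle and cytokinesis genes were higher in the Tg library almost throughout. All 47 were measured, and 38 of them (80.9%) were higher in the Tg library by over 1.5-fold, against a background of 7.74% of all measured genes. Over 2-fold higher were 28 of them (59.6%), against 2.79% of all measured genes, and 9 were over 3-fold higher. None was over 1.5-fold lower, a change that 11.0% of all measured genes showed. The median log2(Tg/WT) over the 47 genes was 1.27, a ratio of 2.41, whereas over all measured genes it was 0.03. The lower and upper quartiles of the 47 were log2 values of 0.78 and 1.53, against -0.26 and 0.26 for all measured genes. Ordered by ratio among the 11095 measured genes, 11 of the 47 stood among the highest 100 and 34 among the highest 500. Their RPKM summed to 1281 in the Tg library and 645 in the WT library, or 0.320% of the sum over all genes, each by 1 transcript, in Tg and 0.148% in WT. In RNA of a whole organ, more dividing cells and more of these RNAs per dividing cell cannot be told apart.

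**Figure D1:**
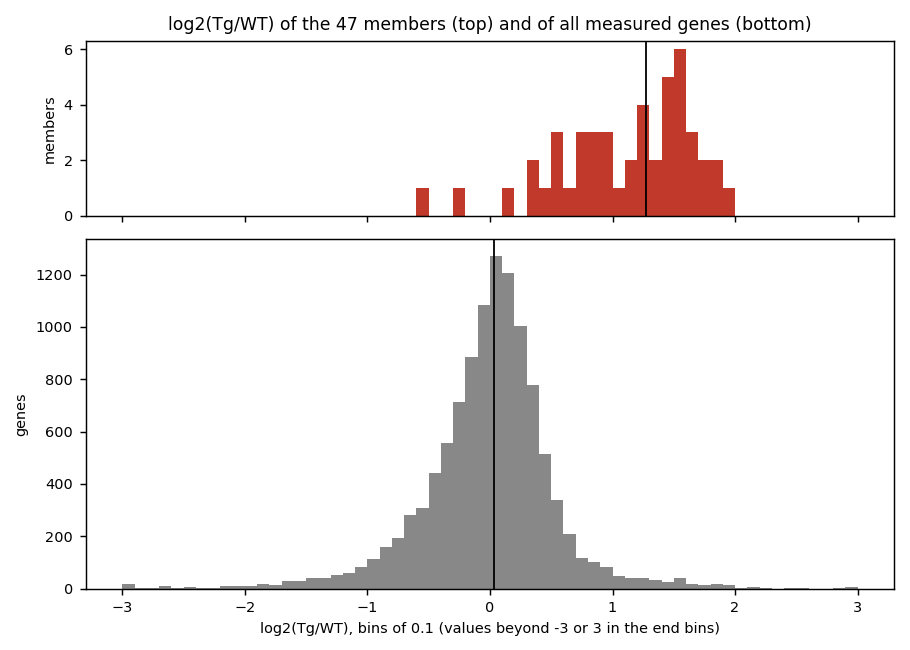
Number of genes by log2(Tg/WT) in bins of 0.1, for the 47 kinetochore, spindle and cytokinesis genes (top) and all 11095 measured genes (bottom), with a vertical line at each median. The median is 1.27 for the 47 genes and 0.03 for all measured genes, and the 47 run between -0.52 and 1.93.

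Counting error was small beside most of these ratios. The 95% interval of a ratio, an exact binomial interval on the fragments of both libraries, lay above 1 for 43 of the genes, below 1 for Cenpq and Zwint, and spanned 1 for Cenpk and Cenpw. Its lower bound was over 1.5 for 35 genes. The same counts were not made over all measured genes. On many fragments an interval can exclude 1 at a small ratio, as for Mad1l1 (1.11, 1.06 to 1.18). These intervals cover counting error only, not the differences between animals. The genes rested on 14 to 3341 fragments per library. In the Tg library the levels ran between 3.63 RPKM (Cenpk) and 106 RPKM (Bub3) with a median of 19.5 RPKM. In the WT library they ran between 1.26 RPKM (Ska1) and 71.3 RPKM (Bub3) with a median of 9.54 RPKM. Across the 47 genes, which share both libraries, Spearman's rho of the log2 ratio was -0.08 with the mean level, -0.33 with the WT level, which is itself part of the ratio, and 0.40 with the annotated transcript length.

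**Figure D2:**
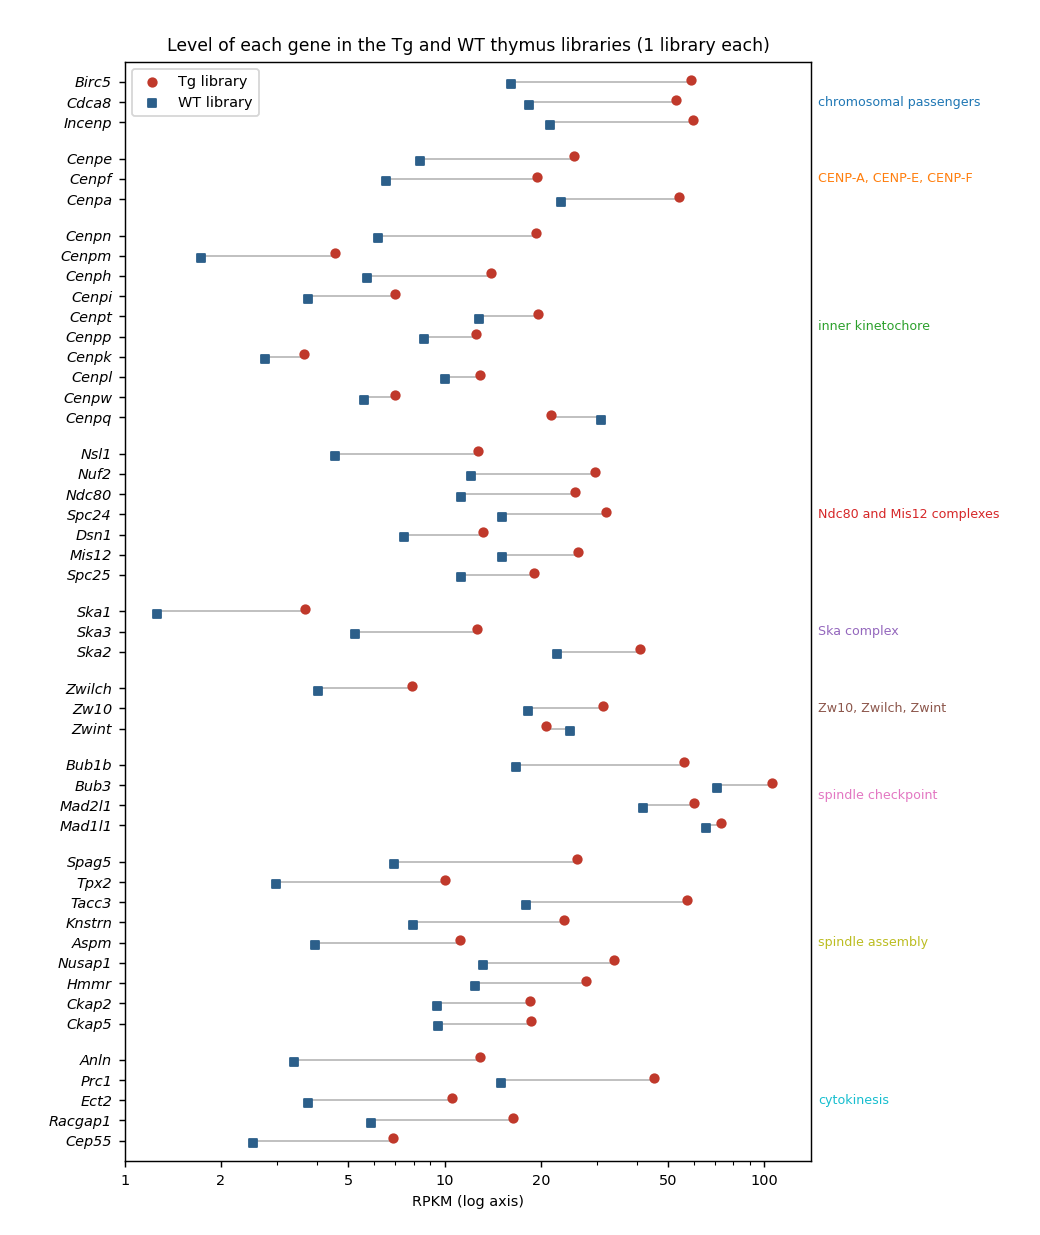
Level of each of the 47 genes in the Tg library (red circles) and the WT library (blue squares), in RPKM on a log axis, grouped by role and sorted by ratio within a role. The red circle lies right of the blue square for every gene except Cenpq and Zwint.

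The promoters are shown because most of these genes differed in the same direction, and promoters of mitotic genes are known for pairing a cell cycle genes homology region (CHR), a short element bound by the DREAM and B-MYB-MuvB complexes, with CCAAT boxes, which are bound by NF-Y. RefSeq promoter sequences of GRCm38.p6 (250 bases before the annotated start to 50 after it) were matched for 41 of the 47 genes. Incenp, Spc24, Nsl1, Ska1, Zwilch and Tpx2 had no entry. A CHR was searched as TTTGAA and its complement on the other strand, TTCAAA, and as the palindrome TTTAAA. The CCAAT box was searched by its letters and as ATTGG on the other strand. The CHR letters were found in 26 of the 41 genes (63.4%), against 22.6% of the 8776 measured genes with a promoter entry and 27.6% of all 32851 promoters. Within 50 bases of the start, a window chosen after the positions had been seen, 21 of the 41 (51.2%) held a CHR match, against 6.21% of the measured genes and 8.28% of all promoters. The CCAAT letters were in 26 of the 41 (63.4%), against 43.5% of the measured genes and 37.4% of all promoters, and both motifs were in 19 of the 41 (46.3%), against 10.7% of the measured genes. An E2F site, searched as TTTCGCGC or else as TTTGGCGC on both strands, was in 1 gene, Cenpl, out of 41 (2.44%), against 2.03% of the measured genes and 0.813% of all promoters. A match is a description of the letters and does not show that a factor binds there.

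In the windows below, 70 bases before the start and 30 after it, CHR and CCAAT matches are in capitals, and a match can run into the next one. Positions are counted from 1 at the annotated start and from -1 at the base before it. The start is that of the promoter table, and the RefSeq spans of some genes, Aspm and Spag5 among them, begin further upstream. The first 8 genes were higher in the Tg library by over 2-fold, and Zwint and Cenpw, shown for contrast, were within 1.5-fold. These windows are examples with a CHR match and do not stand for all genes over 2-fold higher. Of those not printed, Cenpf, Anln, Ska3, Ndc80 and Cep55 had a CHR and no whole CCAAT box in this window. Nuf2, Knstrn, Nusap1 and Tacc3 had neither match in the whole promoter sequence. Spag5 lies at chr11:78301521-78301620 (plus strand), Cenpn at chr8:116921670-116921769 (plus strand), Cenpe at chr3:135212493-135212592 (plus strand), Prc1 at chr7:80294381-80294480 (plus strand), Aspm at chr1:139454703-139454802 (plus strand), Cdca8 at chr4:124936888-124936987 (minus strand), Racgap1 at chr15:99651627-99651726 (minus strand), Cenpa at chr5:30666816-30666915 (plus strand), Zwint at chr10:72654776-72654875 (plus strand) and Cenpw at chr10:30200511-30200610 (minus strand).
Spag5: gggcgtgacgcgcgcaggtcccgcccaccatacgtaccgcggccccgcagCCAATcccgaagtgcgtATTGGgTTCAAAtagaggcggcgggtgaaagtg
Cenpn: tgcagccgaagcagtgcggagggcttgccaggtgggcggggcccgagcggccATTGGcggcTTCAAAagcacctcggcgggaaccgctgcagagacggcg
Cenpe: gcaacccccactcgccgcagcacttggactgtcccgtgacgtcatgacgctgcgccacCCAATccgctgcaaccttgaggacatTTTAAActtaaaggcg
Prc1: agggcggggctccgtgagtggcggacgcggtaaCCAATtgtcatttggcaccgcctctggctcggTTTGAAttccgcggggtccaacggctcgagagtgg
Aspm: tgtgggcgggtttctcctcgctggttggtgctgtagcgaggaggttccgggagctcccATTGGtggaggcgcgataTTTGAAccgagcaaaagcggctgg
Cdca8: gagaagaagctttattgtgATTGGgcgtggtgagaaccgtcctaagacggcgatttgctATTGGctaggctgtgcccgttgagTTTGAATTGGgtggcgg
Racgap1: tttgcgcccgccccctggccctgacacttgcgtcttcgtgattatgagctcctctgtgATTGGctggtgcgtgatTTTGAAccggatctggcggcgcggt
Cenpa: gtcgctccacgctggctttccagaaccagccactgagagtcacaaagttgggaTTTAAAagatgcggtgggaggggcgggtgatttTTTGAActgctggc
Zwint: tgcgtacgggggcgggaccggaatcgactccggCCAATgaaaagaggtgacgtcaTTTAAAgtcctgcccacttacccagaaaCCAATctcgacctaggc
Cenpw: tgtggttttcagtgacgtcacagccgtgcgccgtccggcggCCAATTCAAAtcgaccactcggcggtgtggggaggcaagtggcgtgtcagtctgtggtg

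In Aspm and Racgap1 the arrangement was alike, with a CCAAT box that began at -12 in both and a CHR that began at 7 in Aspm and at 6 in Racgap1. Cenpe also had a CCAAT box from -12, followed by a CHR from 15. In Cenpa the window held a pair of CHR matches, from -17 and from 17, and no CCAAT box. Zwint held a CHR from -15 and CCAAT boxes from -37 and from 14, and Cenpw a CCAAT box from -29 that ran into a CHR from -25, so the letters alone did not separate the higher genes from these. Over the 41 genes, those with a CHR within 50 bases of the start had a median log2(Tg/WT) of 1.47 (21 genes, 16 over 2-fold higher) and those without one 0.84 (20 genes, 7 over 2-fold higher). Over all measured genes the same split gave medians of 0.10 and 0.03. For the 26 genes with a CHR anywhere in the 300 bases the median was 1.37, against 0.86 for the 15 without one, and for CCAAT it was 1.19 with and 1.27 without.

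**Figure D3:**
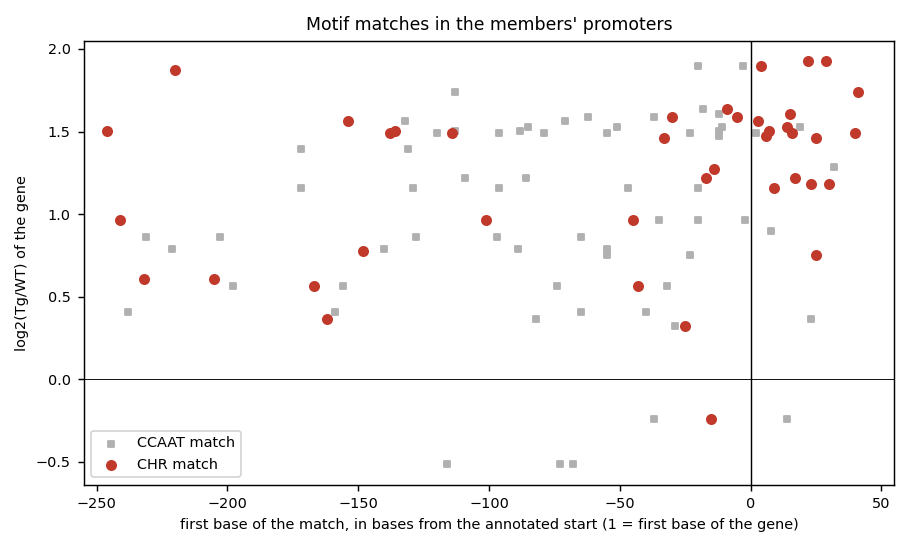
Position of each CHR match (red circles) and CCAAT match (grey squares) in the promoters of 41 genes, in bases from the annotated start, against the log2(Tg/WT) of the gene. Within 50 bases of the start, a window chosen after the positions had been seen, 21 genes have a CHR match. Their median log2 is 1.47, against 0.84 for the 20 genes without one there.

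The chromosomal passengers, which sit at the inner centromere and correct faulty attachments before they move to the spindle midzone, were all higher in the Tg library. Birc5 encodes survivin, the subunit that brings the complex to the centromere, and lies on chromosome 11 (117849237 to 117855743). It had 59.0 RPKM in the Tg library and 16.1 RPKM in the WT library, a ratio of 3.67 (95% interval 3.17 to 4.26) on 883 fragments in Tg and 227 in WT. Incenp, the scaffold that binds and activates the kinase Aurora B, stood at 59.9 RPKM in Tg and 21.3 RPKM in WT, a ratio of 2.81 (2.61 to 3.02). Cdca8, which encodes borealin, the third non-enzymatic subunit, had 52.8 RPKM in Tg and 18.3 RPKM in WT, a ratio of 2.88 (2.58 to 3.21). Per kilobase, Incenp was at 1.01 times the Birc5 level in Tg and 1.33 times in WT, and Cdca8 at 0.894 times in Tg and 1.14 times in WT. By these transcripts the subunits were close to equal levels in both libraries, with Birc5 ahead of Cdca8 in Tg and behind it in WT. This rests on the Birc5 transcript chosen. The other one had 19.8 RPKM in Tg and 6.07 RPKM in WT, a ratio of 3.27, and was below Cdca8 in both libraries. The median log2(Tg/WT) of the passengers was 1.52.

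Cenpa, Cenpe and Cenpf were over 2-fold higher as well. CENP-A replaces histone H3 in centromeric nucleosomes and so marks where the kinetochore forms. Its gene on chromosome 5 (30666877 to 30674837) had 53.9 RPKM in the Tg library and 23.1 RPKM in the WT library, a ratio of 2.33 (2.09 to 2.61). Cenpe, the kinetochore motor that carries chromosomes to the middle of the spindle, had 25.4 RPKM in Tg and 8.37 RPKM in WT, a ratio of 3.04 (2.82 to 3.27). Cenpf, a large coiled-coil protein of the outer corona, had 19.4 RPKM in Tg and 6.57 RPKM in WT, a ratio of 2.96 (2.76 to 3.17). Both transcripts are long and rested on many fragments in the Tg library, 3060 for Cenpe and 3328 for Cenpf, so their intervals are narrow. The promoter windows of Cenpa and Cenpe are among those printed above.

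The subunits of the inner kinetochore, the constitutive network that stays on the centromere through the cell cycle, were the most mixed group. Of 10 genes, 5 were higher in the Tg library by over 1.5-fold, 3 of these over 2-fold, and the median log2(Tg/WT) was 0.57, with a range of -0.52 to 1.64. Cenpn, whose product reads CENP-A nucleosomes directly, was highest among them, at 19.2 RPKM in Tg and 6.19 RPKM in WT, a ratio of 3.11 (2.60 to 3.74). It overlaps Cmc2 in the annotation, which stood at 26.4 RPKM in Tg and 17.5 RPKM in WT. Cenpm, a subunit of the CENP-H/I/K/M complex, had 4.56 RPKM in Tg and 1.73 RPKM in WT, a ratio of 2.63, but on only 39 fragments in Tg and 14 in WT its interval was 1.40 to 5.24. Its 3 transcripts gave ratios between 2.63 and 4.37.

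Other subunits of the CENP-H/I/K/M complex followed at smaller ratios. Cenph had 13.9 RPKM in Tg and 5.72 RPKM in WT, a ratio of 2.44 (1.93 to 3.09). Cenpi, on the X chromosome, had 6.97 RPKM in Tg and 3.74 RPKM in WT, a ratio of 1.86 (1.55 to 2.25). For Cenpk, measured at 3.63 RPKM in Tg and 2.74 RPKM in WT, the ratio of 1.33 was within counting error of 1 (0.924 to 1.92). The transcript with the highest mean is the noncoding NR_075088, and the ratios of all 3 Cenpk transcripts lay between 1.33 and 1.47. Of these 4 subunits, Cenpm and Cenph were thus over 2-fold higher, Cenpi over 1.5-fold, and Cenpk had no difference that its fragments could show.

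Cenpt and Cenpw encode histone-fold proteins that form part of the CENP-T/W/S/X complex, one of the anchors for the outer kinetochore. Cenpt stood just past 1.5-fold, at 19.5 RPKM in Tg and 12.8 RPKM in WT, a ratio of 1.52 (1.32 to 1.75), and went under 1.5-fold with a pseudocount, with median centring, with upper quartile scaling or with the trend over transcript length subtracted. Cenpw had 7.002 RPKM in Tg and 5.602 RPKM in WT, a ratio of 1.25 (0.983 to 1.59). Cenpl, the partner of CENP-N, had 12.9 RPKM in Tg and 10.0 RPKM in WT, a ratio of 1.29 (1.07 to 1.55). The partners CENP-N and CENP-L were therefore at unlike ratios, with Cenpn over 3-fold higher and Cenpl within 1.5-fold.

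Cenpp and Cenpq encode subunits of the CENP-O/P/Q/U/R complex, which helps to bring the kinase Plk1 to the kinetochore. Cenpp had 12.5 RPKM in Tg and 8.62 RPKM in WT, a ratio of 1.45 (1.16 to 1.82). Its gene on chromosome 13 (49464025 to 49652950) overlaps Omd, which stood at 14.2 RPKM in Tg and 13.6 RPKM in WT. Cenpq was the lowest of the 47 genes by ratio. It had 21.6 RPKM in the Tg library and 30.8 RPKM in the WT library, a ratio of 0.699 (0.620 to 0.788) on 479 fragments in Tg and 646 in WT. Among the 10 inner kinetochore genes of the list it was the most abundant in both libraries. The order by level and the order by ratio were thus far apart in this group. The transcript lengths recovered for Cenpq, Cenpl, Cenpm, Nsl1, Knstrn and Anln differed from the annotation by over 20%, and their intervals rest on those lengths.

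The outer kinetochore was higher throughout, with all 7 genes over 1.5-fold and 4 over 2-fold, at a median log2(Tg/WT) of 1.08. The Ndc80 complex is the rod that binds microtubules. Ndc80 itself had 25.6 RPKM in Tg and 11.3 RPKM in WT, a ratio of 2.27 (2.01 to 2.58). Nuf2, its partner at the microtubule end, had 29.5 RPKM in Tg and 12.1 RPKM in WT, a ratio of 2.45 (2.19 to 2.75). At the inner end of the rod, Spc24 had 31.9 RPKM in Tg and 15.1 RPKM in WT, a ratio of 2.11 (1.84 to 2.43). Its partner Spc25 had 19.0 RPKM in Tg and 11.3 RPKM in WT, a ratio of 1.68 (1.42 to 1.99), and its 3 transcripts gave ratios between 1.68 and 2.36. Per kilobase, Nuf2 was at 1.15 times the Ndc80 level in Tg and 1.07 times in WT, Spc24 at 1.25 times in Tg and 1.34 times in WT, and Spc25 at 0.742 times in Tg and 1.00 times in WT. The 4 subunits of the rod thus stayed near each other in level in both libraries.

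The Mis12 complex joins the Ndc80 rod to the inner kinetochore. Dsn1, the subunit through which Aurora B controls this link, had 13.2 RPKM in Tg and 7.45 RPKM in WT, a ratio of 1.77 (1.51 to 2.07). Mis12 had 26.2 RPKM in Tg and 15.1 RPKM in WT, a ratio of 1.73 (1.57 to 1.91), and overlaps Derl2 (10.5 RPKM in Tg, 12.7 RPKM in WT). Nsl1 had 12.7 RPKM in Tg and 4.54 RPKM in WT, a ratio of 2.79 (2.37 to 3.30), the highest of the outer kinetochore. Mis12 was at 1.99 times the Dsn1 level per kilobase in Tg and 2.03 times in WT, whereas Nsl1 was at 0.962 times in Tg and 0.609 times in WT. Mis12 and Dsn1 thus kept nearly the same proportion in the libraries, and Nsl1 did not.

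The Ska complex, which couples the Ndc80 rod to the ends of shortening microtubules, was over 1.5-fold higher for all 3 genes. Ska1, its microtubule-binding subunit, was the least abundant of the 47 genes in WT, at 3.65 RPKM in Tg and 1.26 RPKM in WT, a ratio of 2.89 (2.08 to 4.07) on 150 fragments in Tg and 49 in WT. Its other transcript gave a ratio of 2.01. Ska3 had 12.6 RPKM in Tg and 5.24 RPKM in WT, a ratio of 2.41 (2.02 to 2.90). Ska2 had 40.8 RPKM in Tg and 22.4 RPKM in WT, a ratio of 1.82 (1.68 to 1.98). The proteins work together in the complex, yet per kilobase Ska2 stood at 11.2 times the Ska1 level in Tg and 17.7 times in WT. By the other Ska1 transcript, whose ratio of 2.01 lay nearer that of Ska2, this shift was smaller.

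Zw10 and Zwilch belong to the RZZ complex, which recruits the minus-end motor dynein and checkpoint proteins to kinetochores, and Zwint is the kinetochore protein that binds Zw10. Zw10 had 31.3 RPKM in Tg and 18.3 RPKM in WT, a ratio of 1.71 (1.57 to 1.87). Zwilch had 7.93 RPKM in Tg and 4.03 RPKM in WT, a ratio of 1.97 (1.63 to 2.39). Zwint went the other way, at 20.8 RPKM in the Tg library and 24.6 RPKM in the WT library, a ratio of 0.846 (0.771 to 0.929) on 857 fragments in Tg and 955 in WT. Zwint and Cenpq were the only ones of the 47 genes with a ratio below 1, and both were within 1.5-fold. Zwint lies on chromosome 10 (72654846 to 72674964), and no other gene overlaps it in the RefSeq table.

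Of the 4 spindle checkpoint genes, 1 was over 1.5-fold higher, and the other 3, Bub3, Mad1l1 and Mad2l1, had the highest mean levels of the list. Bub1b, which encodes BubR1, a part of the complex that inhibits the anaphase-promoting ubiquitin ligase, was the exception. It had 55.9 RPKM in the Tg library and 16.7 RPKM in the WT library, a ratio of 3.34 (3.10 to 3.60) on 3158 fragments in Tg and 892 in WT. Bub3, the partner that carries BubR1 to kinetochores, had 106 RPKM in Tg and 71.3 RPKM in WT, a ratio of 1.48 (1.40 to 1.56). Bub3 was at 1.89 times the Bub1b level per kilobase in Tg and 4.26 times in WT, the largest shift among the 13 pairs of genes set side by side within complexes. Mad2l1, which encodes the checkpoint protein Mad2, had 60.2 RPKM in Tg and 41.7 RPKM in WT, a ratio of 1.45 (1.34 to 1.56). Mad1l1, which encodes the Mad1 platform that activates Mad2, had 73.4 RPKM in Tg and 65.9 RPKM in WT, a ratio of 1.11 (1.06 to 1.18). Bub3 and Mad2l1 lay just under 1.5-fold and passed it when both libraries were rescaled to the same RPKM sum, at log2 values of 0.69 and 0.66.

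**Figure D4:**
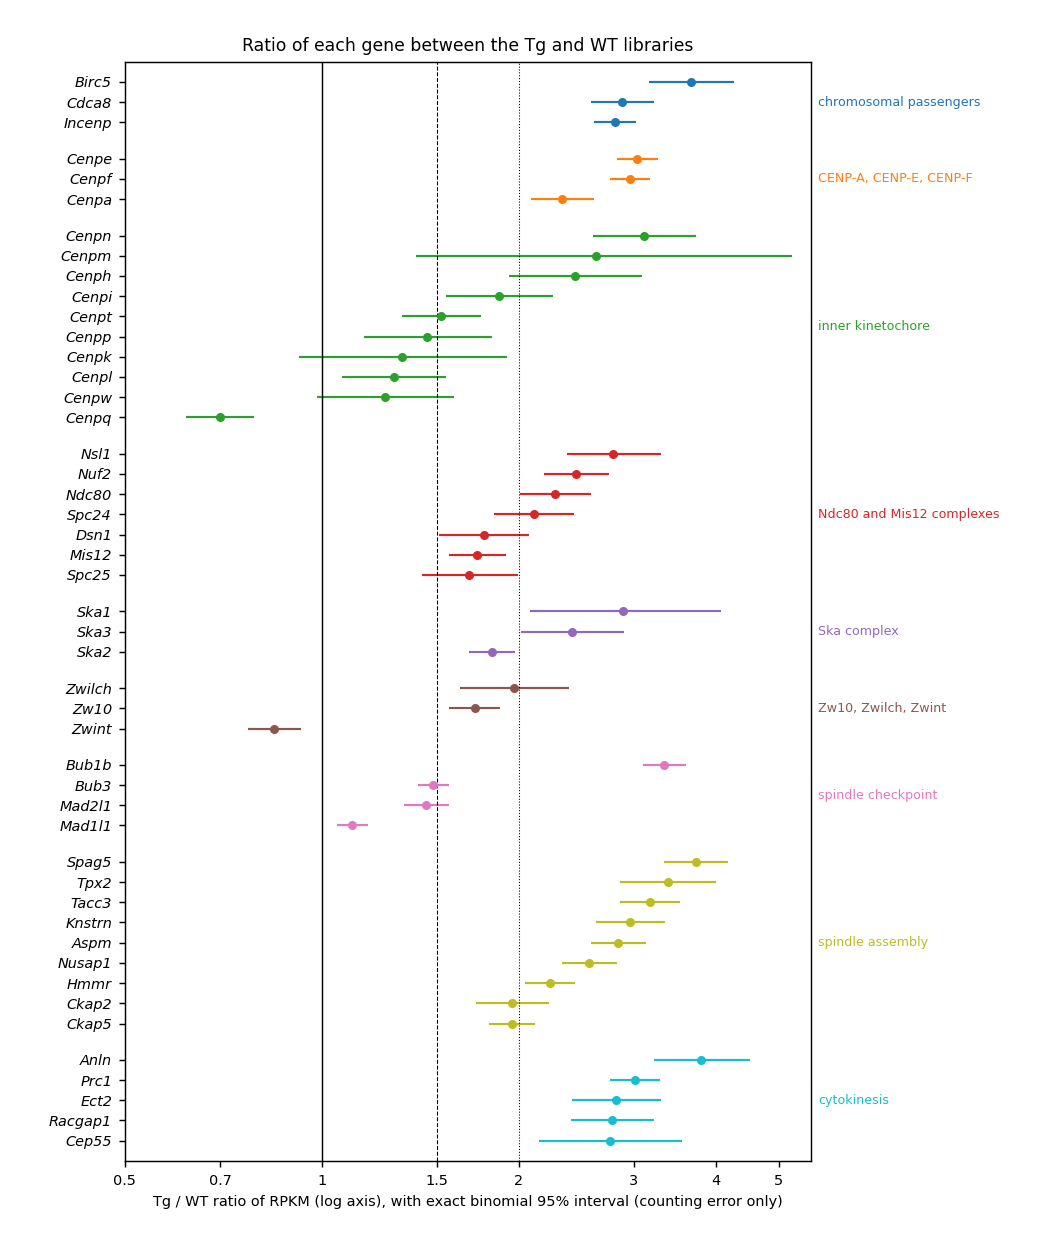
Ratio of the RPKM of each gene in the Tg library to that in the WT library, on a log axis, with exact binomial 95% intervals that cover counting error only, grouped by role. Solid, dashed and dotted lines mark ratios of 1, 1.5 and 2, and only Cenpq and Zwint have an interval below 1.

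All 9 genes of spindle assembly were higher in the Tg library by over 1.5-fold, 7 of them over 2-fold, with a median log2(Tg/WT) of 1.51. Spag5, which encodes astrin, a protein of spindle poles and attached kinetochores, had 25.9 RPKM in Tg and 6.95 RPKM in WT, a ratio of 3.73 (3.33 to 4.18). Knstrn, which encodes its partner kinastrin, had 23.6 RPKM in Tg and 7.97 RPKM in WT, a ratio of 2.96 (2.63 to 3.34). The partners stood near each other in level in both libraries. Tpx2, which activates the kinase Aurora A and starts microtubules around chromosomes, had 10.0 RPKM in Tg and 2.97 RPKM in WT, a ratio of 3.38 (2.86 to 4.01), and its 5 transcripts gave ratios between 2.83 and 3.65. Tacc3, which with Ckap5 and clathrin bundles spindle microtubules, had 57.2 RPKM in Tg and 18.02 RPKM in WT, a ratio of 3.17 (2.86 to 3.53). Ckap5 encodes the microtubule polymerase ch-TOG and had 18.6 RPKM in Tg and 9.54 RPKM in WT, a ratio of 1.95 (1.80 to 2.12). Per kilobase, Ckap5 was at 0.326 times the Tacc3 level in Tg and 0.529 times in WT.

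Aspm, which acts at spindle poles and sets spindle orientation in dividing progenitors, had 11.2 RPKM in Tg and 3.94 RPKM in WT, a ratio of 2.84 (2.58 to 3.13). Nusap1, a protein that bundles microtubules near chromosomes, had 33.8 RPKM in Tg and 13.2 RPKM in WT, a ratio of 2.56 (2.33 to 2.83). It overlaps Oip5, itself a centromere gene, at 8.34 RPKM in Tg and 2.87 RPKM in WT. Hmmr, a hyaluronan receptor that also binds spindle microtubules, had 27.7 RPKM in Tg and 12.4 RPKM in WT, a ratio of 2.23 (2.04 to 2.44). Ckap2, a microtubule-associated protein of the spindle, had 18.5 RPKM in Tg and 9.48 RPKM in WT, a ratio of 1.95 (1.72 to 2.22). Ckap2 and Ckap5 were the genes of this group that stayed under 2-fold.

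The 5 genes of cytokinesis were all higher in the Tg library by over 2-fold, in a narrow band of log2 values between 1.46 and 1.93. Anln had the highest ratio of all 47 genes. It encodes anillin, the scaffold that ties actin, myosin and septins together in the contractile ring, and lies on chromosome 9 (22331214 to 22389211). It had 12.9 RPKM in the Tg library and 3.39 RPKM in the WT library, a ratio of 3.80 (3.22 to 4.51) on 718 fragments in Tg and 178 in WT. The gene 9530077C05Rik overlaps it, at 4.25 RPKM in Tg and 1.69 RPKM in WT, and the reads of overlapping genes cannot be told apart without a strand setting. Prc1, which crosslinks the antiparallel microtubules of the midzone, had 45.0 RPKM in Tg and 15.0 RPKM in WT, a ratio of 3.01 (2.76 to 3.29). Ect2, the exchange factor that activates RhoA at the cell equator, had 10.6 RPKM in Tg and 3.75 RPKM in WT, a ratio of 2.82 (2.41 to 3.30). Racgap1, the centralspindlin subunit that binds Ect2, had 16.4 RPKM in Tg and 5.90 RPKM in WT, a ratio of 2.78 (2.40 to 3.22). By the transcripts used, Racgap1 was at 1.55 times the Ect2 level per kilobase in Tg and 1.57 times in WT, almost the same proportion. The 3 Ect2 transcripts gave ratios between 2.82 and 3.33, so this proportion depends on the transcript chosen. Cep55, which recruits the machinery that cuts the midbody, had 6.92 RPKM in Tg and 2.51 RPKM in WT, a ratio of 2.75 (2.15 to 3.55), and its 3 transcripts gave ratios between 2.12 and 2.75.

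Other genes of the same machinery were counted in the same way, and their difference from the 47 was not tested. Of 65 such genes, all measured, 28 were higher in the Tg library by over 1.5-fold, 3 were over 1.5-fold lower and 34 were within 1.5-fold, and their median log2(Tg/WT) was 0.43. For these lists and those that follow, the background over all measured genes was 7.74% over 1.5-fold higher and 11.0% lower. Among 22 other kinetochore genes 12 were higher, with a median log2 of 0.62. The highest ratio was that of Kntc1, which encodes Rod, the partner of Zw10 and Zwilch, at 9.59 RPKM in Tg and 2.69 RPKM in WT (3.56). Spdl1 (ratio 3.07), the adaptor between RZZ and dynein, Oip5 (2.90), which helps to load CENP-A, and the cohesin protectors Sgo1 (2.64) and Sgo2a (1.99) were also among the 12. Knl1, the outer kinetochore protein that Zwint binds, had 14.2 RPKM in Tg and 5.72 RPKM in WT (2.49), so the binding partners Zwint and Knl1 were on opposite sides of 1. Others of the 12 were Trip13 (2.53) and Mad2l1bp (1.53), which act on Mad2, Pmf1 of the Mis12 complex (1.97), Cenps (1.94) and Cenpu (1.53). Itgb3bp, which encodes CENP-R of the same complex as Cenpq, was lower, at 3.20 RPKM in Tg and 5.88 RPKM in WT (ratio 0.544, interval 0.437 to 0.675).

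Among 26 other spindle genes 12 were over 1.5-fold higher and 1 was lower, with a median log2 of 0.40. Ckap2l, a spindle protein related to Ckap2, was highest, at 30.1 RPKM in Tg and 9.44 RPKM in WT (3.19). Fam83d (3.07), which brings a kinase to the spindle, and Dlgap5 (2.64), which stabilizes kinetochore microtubules, were over 2-fold higher, and Haus4 (2.02) and Psrc1 (2.002) lay at 2-fold. Gpsm2 (1.99), which orients the spindle, Nde1 (1.86), Cdk5rap2 (1.82), Tubg1 (1.82), the γ-tubulin from which microtubules start, Haus8 (1.80), Haus5 (1.75) and Clasp1 (1.56) were under 2-fold. The augmin complex, which branches microtubules off existing ones, was split, since Haus4, Haus5 and Haus8 were higher while Haus2 was lower, at 12.9 RPKM in Tg and 21.8 RPKM in WT (ratio 0.592).

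Among 17 other cytokinesis genes 4 were over 1.5-fold higher, against 7.74% of all measured genes, and 1 was lower, against 11.0%. The median log2 was 0.09. The higher ones were Cit, the citron kinase of the midbody, at 4.79 RPKM in Tg and 1.69 RPKM in WT (2.84), Diaph3, a formin (2.44), Shcbp1 (1.79), which binds centralspindlin, and Rab11fip3 (1.56). Sept7, a septin of the cell cortex, was lower, at 59.0 RPKM in Tg and 104 RPKM in WT (0.570). The 12 others, which include genes used in nondividing cells for adhesion, membrane traffic and the cortex, were within 1.5-fold.

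Set beside them, 9 mitotic kinases all passed 1.5-fold, and their median log2(Tg/WT) was 1.54. By the mean of both libraries the most abundant were Pbk, at 47.2 RPKM in Tg and 19.8 RPKM in WT, and Plk1, at 42.8 RPKM in Tg and 10.9 RPKM in WT, while Cdk1 had 35.1 RPKM in Tg and 17.9 RPKM in WT. Of 13 measured kinesins 11 were over 1.5-fold higher (median log2 1.42). Kif5b, a cargo motor outside mitosis, was at 80.0 RPKM in Tg and 79.0 RPKM in WT, and Kif22, a chromosome arm motor, at 62.7 RPKM in Tg and 19.8 RPKM in WT. Of 24 DNA replication genes 20 were over 1.5-fold higher (median log2 0.84), with Pcna at 478 RPKM in Tg and 350.3 RPKM in WT and Mcm7 at 136 RPKM in Tg and 75.2 RPKM in WT. The median of the 47 genes, 1.27, lay between those of kinesins and of replication genes, and the differences between these lists were not tested.

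**Figure D5:**
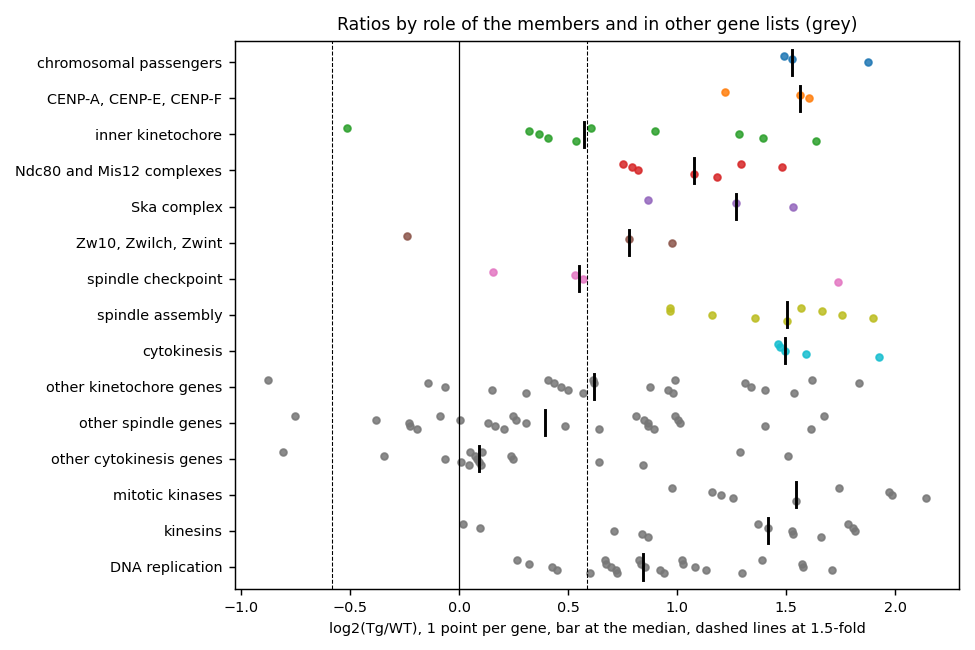
log2(Tg/WT) of each gene (points) by role for the 47 genes (coloured) and for other genes of the same machinery, mitotic kinases, kinesins and DNA replication (grey), with a bar at each median and dashed lines at 1.5-fold. The medians run between 0.09 for other cytokinesis genes and 1.56 for the group of CENP-A, CENP-E and CENP-F.

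Neutrophil and erythroid markers differed between the libraries as well. Of 9 neutrophil markers 7 were measured and all 7 were lower in Tg by over 1.5-fold, the list summing to 146 RPKM in Tg and 560.3 RPKM in WT. S100a8, the most abundant of them, had 70.6 RPKM in Tg and 309 RPKM in WT, and S100a9 had 33.3 RPKM in Tg and 151 RPKM in WT. The erythroid list summed to 115 RPKM in Tg and 221 RPKM in WT, carried by globins such as Hba-a2 (39.7 RPKM in Tg, 60.1 RPKM in WT) and Hba-a1 (33.1 RPKM in Tg, 57.9 RPKM in WT). All 6 measured erythroid genes were over 1.5-fold lower, while Alas2, Slc4a1, Klf1 and Epor, markers of erythroid precursors, were under 1 RPKM in both libraries. B cell markers (4 of 7 measured) summed to 21.6 RPKM in Tg and 29.4 RPKM in WT, and 1 of the 4, Ms4a1, was over 1.5-fold lower. Macrophage markers (5 of 8) summed to 50.9 RPKM in Tg and 74.0 RPKM in WT, a difference carried by Lyz2 (34.7 RPKM in Tg, 56.2 RPKM in WT), while the other 4 measured ones were within 1.5-fold. Epithelial markers (3 of 8) summed to 12.02 RPKM in Tg and 10.9 RPKM in WT, and fibroblast and endothelial markers (1 of 8) to 17.5 RPKM in Tg and 18.2 RPKM in WT, with no measured one past 1.5-fold. The latter sum was almost all Pecam1 (17.0 RPKM in Tg, 16.4 RPKM in WT), so it says little about the rest of that list. Among the unmeasured ones, Col1a2 had 9 fragments in Tg and 91 in WT and Cdh5 had 1 and 12, while Col1a1 had 8 and 2. Early thymocyte markers (8 of 12 measured, with Ptcra also on the thymocyte list) were split, with 2 over 1.5-fold higher and 3 lower, and summed to 84.7 RPKM in Tg and 100.0 RPKM in WT. Their 2 most abundant genes were Il7r, at 21.7 RPKM in Tg and 51.9 RPKM in WT, and Notch1, at 21.0 RPKM in Tg and 14.5 RPKM in WT. The lower sum in Tg was carried by Il7r alone. The study also measured the protein of Il7r, CD127, on later thymocytes that carry only CD4 or only CD8, so Il7r does not mark early ones alone. The part of these differences in the ratios of the kinetochore, spindle and cytokinesis genes was not tested.

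Of the 47 genes, 20 overlap another gene of the RefSeq table and 9 overlap a measured one, and the strand setting of the counting is not given in the sources used here. Besides those named above, these are Cenpk with Ppwd1 (16.1 RPKM in Tg, 18.6 RPKM in WT), Nsl1 with Tatdn3 (1.27 RPKM in Tg, 1.10 RPKM in WT), Ska3 with Mrpl57 (13.0 RPKM in Tg, 12.8 RPKM in WT) and Prc1 with Rccd1 (6.55 RPKM in Tg, 7.77 RPKM in WT). None of these 4 neighbours was higher in the Tg library by over 1.5-fold. Of the neighbours named above, Cmc2 (of Cenpn), Oip5 (of Nusap1) and 9530077C05Rik (of Anln) were over 1.5-fold higher, and Omd (of Cenpp) and Derl2 (of Mis12) were not. The part of shared reads in the ratios was not tested. For 11 genes the files list more than 1 transcript, and in each of them all transcripts lay on the same side of 1. Transcripts of a gene share exons and can hold the same reads, so this is not an independent check.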

How the data were processed

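Per the labels and the study's methods, the authors ground frozen thymuses, extracted RNA with Trizol, selected polyadenylated RNA with oligo(dT) beads, prepared 1 NEB Next Ultra library per genotype, sequenced it on an Illumina HiSeq instrument and kept uniquely mapped reads. The mapper's name is spelled HotHap2 in the paper, and its version is not given in the sources used here. The genome build was mm10 according to the submitters' processing notes. The deposited values are RPKM for 30533 RefSeq transcripts, made by the authors, although the text of the study describes fragments in place of reads. Symbols came from RefSeq and GENCODE tables of the same build (98.9% of transcripts).

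Read numbers were recovered from the RPKM values, which were whole reads divided by a whole length (relative tolerance 1e-12) at 30793392 reads in the Tg library and 29045338 in the WT library. A length was accepted only if the reads of each library were even, as for pairs, or were 1. Evenness was thus a condition of the recovery and not a result of it. Each 2 reads counted as 1 fragment, and a value of 1 read counted as no fragment. For 87.6% of transcripts the length recovered in this way differed from the annotated one by less than 20%. Where no length within 5% of the annotation gave such reads, the shortest one of at least 60% of it was used, which widens the interval. No count test was run, since with 1 library per genotype it would compare libraries. Ratios are Tg over WT without a pseudocount, and intervals are exact (Clopper-Pearson) binomial intervals at 95%. Scripts were tested on simulated data.

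The genes, lists, motifs and thresholds were chosen with earlier results of these data known. All 47 genes were named, as were other genes of the machinery over 1.5-fold higher or lower and the 2 genes with the highest mean of each comparison list and of the marker lists with the highest sums. The erythroid markers near 0, the named fibroblast and endothelial markers and the 50-base promoter window were singled out after their values were seen. Alternatives were no filter, a mean of at least 5 RPKM, a pseudocount of 1 RPKM, the sum or mean of a gene's transcripts, median centring, upper quartile scaling, rescaling to the same RPKM sum, and removal of the trend over transcript length with a running median of 401 genes. Python 3.11.15, numpy 2.4.6, pandas 2.3.3, scipy 1.17.1 and matplotlib 3.10.9 were used. Flow cytometry and protein assays were not analysed here.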

Additional observations from a re-analysis of the deposited data

How the results depend on the processing

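Under 9 alternatives the number of genes over 1.5-fold higher in the Tg library lay between 35 (mean of at least 5 RPKM, which leaves 43 of the genes) and 41 (both libraries rescaled to the same RPKM sum), against 38 as reported. The number over 2-fold higher lay between 25 and 32 under the same settings, none was over 1.5-fold lower in any of them, and the median log2(Tg/WT) lay between 1.12 (pseudocount of 1 RPKM) and 1.40 (same sum). Rescaling to the same sum put the median over all measured genes at 0.16, against 0.03 without it. The shares of all measured genes past 1.5-fold became 11.9% higher and 7.89% lower. This rescaling shifts every gene by the same log2 amount. The median of the 47 genes, 1.24 above that of all genes, therefore could not move against it. Cenpp passed 1.5-fold with the same sum and with the trend over length subtracted (log2 of 0.66 and 0.61). Single genes left their counting interval with the same sum (9 genes) and with the pseudocount (6 genes), in no case with a change of sign. No paired analysis was possible because each genotype has 1 library, and for the same reason no replicate could be left out. Depth limits Cenpm, Cenpk, Ska1 and Cep55 most, with as few as 14, 54, 49 and 87 fragments in the WT library.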
